A study of Mus musculus with 16 samples.

Results

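Factors tied to bone disease in multiple myeloma (MM) were followed through 3 groups of arrays from the Eμ-xbp-1s mouse. They are Tnfsf11, Tnfrsf11a, Tnfrsf11b, Dkk1, Spp1, Ccl3, Ccl4, Acp5, Ctsk and Csf1, and a probe set was taken for a gene where the platform annotation gave that symbol alone. Of these 10 genes 9 had such a probe set, 16 probe sets among the 45101 of the array and 9 among its 18193 named genes. Spp1, which encodes the bone matrix protein osteopontin, was not listed in that annotation and was not analysed here. The nontransgenic B cells (n = 5) and the Eμ-xbp-1s B cells (n = 5) were B220+ cells taken from spleen with magnetic beads, and the transgenic mice were 20 weeks old. The transgene expresses the spliced form of mouse Xbp1 from an Ig VH promoter and the Eμ enhancer, with a green fluorescent protein behind an internal ribosome entry site, and the mice are C57BL/6. The Eμ-xbp-1s MM group (n = 6) holds tumours that arose in such mice, for which the sources name no cell sort. Both founder lines were used in the study, and the labels do not give the line, the age at tumour or whether each MM sample is from a different mouse. A p-value then measures how far these samples spread, and that spread may be technical.

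In myeloma, plasma cells in the marrow tilt bone turnover towards resorption. RANKL, encoded by Tnfsf11, binds its receptor RANK, encoded by Tnfrsf11a, on osteoclast precursors and drives them to become bone-resorbing osteoclasts, while osteoprotegerin, encoded by Tnfrsf11b, is a soluble decoy that captures RANKL. M-CSF, the product of Csf1, keeps the precursors alive, and the chemokines MIP-1α (Ccl3) and MIP-1β (Ccl4) draw them in and stimulate them. Dkk1 is a secreted WNT antagonist that holds back osteoblasts, the cells that build bone. Acp5 (tartrate-resistant acid phosphatase) and Ctsk (cathepsin K) are enzymes of the mature osteoclast, and both are also made by some macrophages.

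Upstream sequence is shown for 2 genes: Ccl3, the member with the largest difference past the test, and Ctsk, which the filter left untested. RefSeq (GRCm38.p6) gave a window for 8 of the 10 genes, and gave none for Ccl4 or Tnfrsf11b. Each run holds the 250 bases before the annotated start of the gene, read 5′ to 3′ on the gene's own strand, at chr11:83649379-83649628 on the minus strand for Ccl3 and at chr3:95498960-95499209 on the plus strand for Ctsk. Capitals mark a match to a searched motif, of which Ctsk had 1 and Ccl3 none.
Ccl3: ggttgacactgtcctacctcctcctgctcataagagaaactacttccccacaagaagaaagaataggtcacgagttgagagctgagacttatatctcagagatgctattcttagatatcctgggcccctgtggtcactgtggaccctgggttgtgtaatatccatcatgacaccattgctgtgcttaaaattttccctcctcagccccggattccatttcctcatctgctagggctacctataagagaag
Ctsk: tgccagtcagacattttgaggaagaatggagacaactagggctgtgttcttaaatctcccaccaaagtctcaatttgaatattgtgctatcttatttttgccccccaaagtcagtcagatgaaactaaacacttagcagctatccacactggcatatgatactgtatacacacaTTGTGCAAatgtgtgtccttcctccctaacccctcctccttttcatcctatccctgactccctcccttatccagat
The letters searched, on both strands, were TATAAA for the TATA box, TGANTCA for AP-1, TTGCNNAA for CEBP and GGANTTTCC for NF-kappaB. The match in Ctsk was to the CEBP letters, at bases -76 to -69 from the start, and 9.56% of 32851 RefSeq windows of this length hold one. The TATA box letters stood upstream of Dkk1, Spp1 and Tnfsf11 (12.4% of windows), the NF-kappaB letters upstream of Csf1 (1.07%) and the AP-1 letters upstream of none of the 8 genes (6.75%). These are matches of letters and not binding sites, and the files hold no measurement of binding.

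The values are array intensities on a linear scale in arbitrary units, and each gene is read by its brightest probe set, the one with the highest mean over the 16 arrays. An intensity of 50 was taken as the floor, below which values were not told apart in the tests. Of the 16 probe sets, 5 stood at or under the floor on every array (both of Tnfrsf11b, both of Dkk1 and 1 of Csf1), 8 exceeded 100 on at least 1 array and 4 exceeded 100 on every array. A probe set that exceeded 100 on over 20% of the arrays in a comparison was tested with limma on the log2 scale, at a Benjamini-Hochberg adjusted p under 0.01 over all probe sets tested. Tnfrsf11a, Ccl3, Ccl4, Acp5 and Csf1 passed this filter in each comparison, with 7 of their probe sets. Levels of different genes are not compared, since each probe set has its own brightness.

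**Figure D1:**
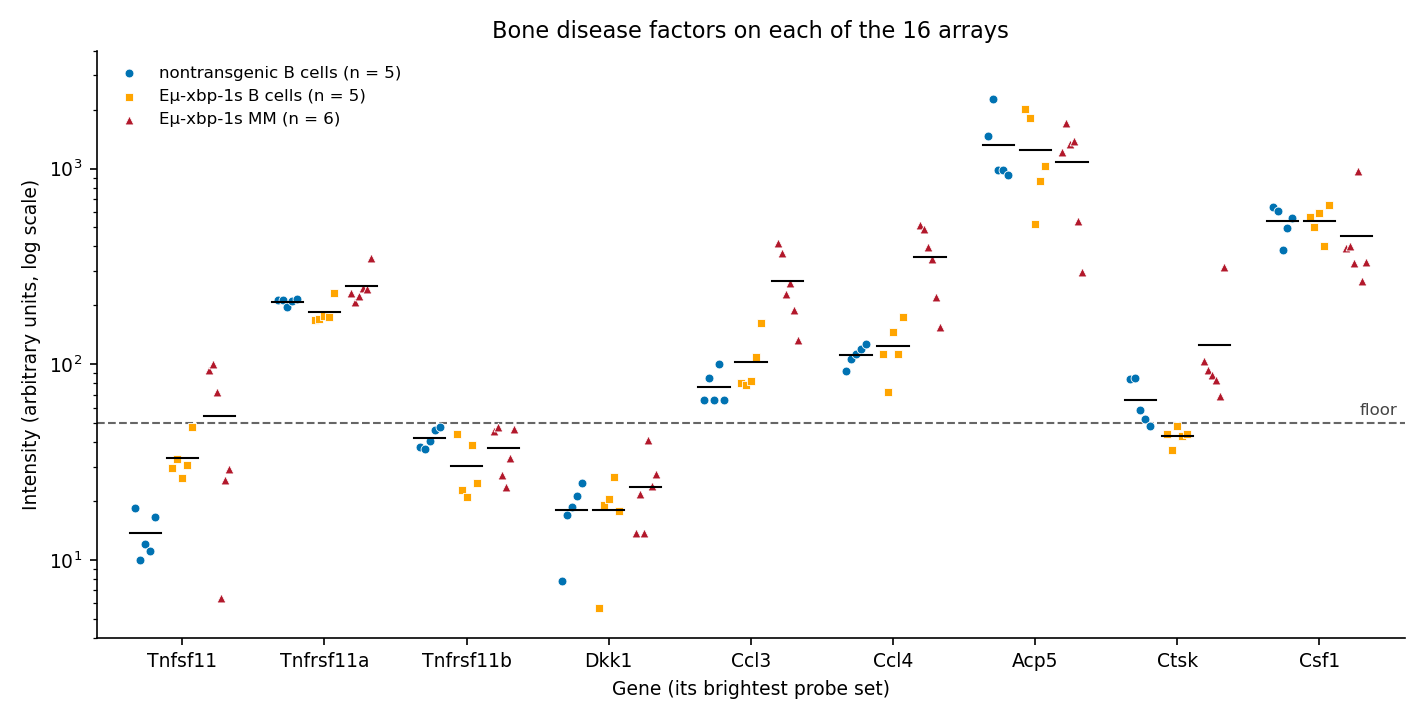
Intensity (arbitrary units, log axis) of the brightest probe set of 9 genes on each array: circles are nontransgenic B cells (n = 5), squares Eμ-xbp-1s B cells (n = 5) and triangles Eμ-xbp-1s MM (n = 6), black bars are group means, and the dashed line is the floor of 50. Ccl3 and Ccl4 lie higher in MM, Dkk1 and Tnfrsf11b lie under the floor on every array, and Tnfsf11 exceeds it on 3 MM arrays only.

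The arrays of the 3 groups had like brightness, with median intensities of 69.0 to 82.9, and no pair of arrays held identical values. The cells behind them differed. Marker genes of mature B cells summed to intensities of 35820 to 39060 in nontransgenic B cells, 15410 to 30280 in Eμ-xbp-1s B cells and 865 to 13860 in MM. Genes of plasma cells summed to 12530 to 14220, 11500 to 16230 and 4512 to 18210, and by limma none of their 9 tested genes was higher in MM in either comparison (1 had an unadjusted p under 0.05 in each), while Irf4, a transcription factor of plasma cells, was lower than in nontransgenic B cells. Macrophage genes summed to 3333 to 5309, 7324 to 14270 and 9744 to 40530, and stromal genes, which encode fibrillar collagens and other matrix proteins, to 322 to 506, 331 to 452 and 4583 to 10890. Genes of neutrophils summed to 760 to 1518 in nontransgenic and 9277 to 29360 in Eμ-xbp-1s B cells, and to 68180 and 47810 on MM replicates 4 and 5 but 639 to 1685 on the other MM arrays. Erythroid genes summed to 216 to 472 and 1076 to 9560 in these B cell groups, and to 19090 and 29890 on MM replicates 4 and 5 but 258 to 302 on the other MM arrays. No gene of these lists that had a probe set stood at or under the floor on all arrays. In such bulk RNA, fewer cells of a type and less RNA per cell cannot be told apart.

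Ccl3 and Ccl4, the chemokine pair, were the members that differed past the test, and both were higher in MM than in nontransgenic B cells. Ccl3 read 65.5, 84.9, 65.9, 100.9 and 65.9 on nontransgenic replicates 1 to 5. It read 79.9, 78.7, 81.9, 109.4 and 162.0 on the Eμ-xbp-1s B cell arrays. On the MM arrays it read 417.8, 371.5, 227.7, 260.5, 188.6 and 133.8. Every MM array thus lay above every nontransgenic array, and 5 of 6 lay above every Eμ-xbp-1s B cell array. MM replicate 6 was the lowest of its group and overlapped Eμ-xbp-1s B cell replicate 5. The share of all probe sets that separate these groups was not counted, so nothing is read from the lack of overlap.

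Ccl4 behaved likewise on the single arrays. It read 92.0, 105.9, 113.2, 120.3 and 127.3 in nontransgenic B cells. The Eμ-xbp-1s B cell arrays gave 112.9, 71.8, 146.6, 113.0 and 174.1. The MM arrays gave 514.4, 488.5, 399.2, 345.3, 221.0 and 154.5. Again the MM and nontransgenic arrays did not overlap, from which nothing is read for the same reason. MM replicate 6 alone fell among the Eμ-xbp-1s B cell arrays. In RefSeq the annotated spans of the 2 genes overlap on chromosome 11, at 83647843-83649378 for Ccl3 and 83648624-83664683 for Ccl4. The window shown upstream of Ccl3 thus lies within the annotated span of Ccl4.

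Against nontransgenic B cells, Ccl3 rose 3.29-fold in MM, from 76.6 ± 15.9 (SD, n = 5) to 267 ± 109 (SD, n = 6), a log2 fold change of 1.72 (standard error 0.28, limma adjusted p = 0.00131). Ccl4 rose 2.93-fold, from 112 ± 13.6 to 354 ± 144, a log2 fold change of 1.55 (standard error 0.29, limma adjusted p = 0.00335). These 2 of the 5 tested members were higher and none was lower, where 3.95% of 21894 probe sets were higher and 5.65% were lower. Over the 5 genes the median log2 fold change was 0.24, and over all probe sets tested -0.03. With MM replicates 4 and 5 left out, the log2 fold changes of Ccl3 and Ccl4 were 1.80 and 1.67 and both passed. The call of Ccl4 was lost without nontransgenic replicate 1 (adjusted p = 0.0124) or replicate 2 (adjusted p = 0.0111) and with no filter on low values (adjusted p = 0.0174), and leaving out another array kept it.

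Against Eμ-xbp-1s B cells, the same pair had log2 fold changes of 1.34 (standard error 0.31) for Ccl3 and 1.46 (standard error 0.33) for Ccl4, each with a limma adjusted p of 0.0175, past 0.05 but short of 0.01. No member was called in this comparison, where 1.28% of 22194 probe sets were higher and 1.91% were lower. At an unadjusted p under 0.05 there were 3 genes, Tnfrsf11a, Ccl3 and Ccl4, and the median over the 5 genes was 0.43, beside 0.0005 over all probe sets tested. Both chemokines passed 0.01 without MM replicate 6 (adjusted p = 0.00563 and 0.00401), with all 3 groups in one fit (0.00312 and 0.00256) and with array weights. This comparison and that with nontransgenic B cells share their MM arrays.

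Between the B cell groups, Ccl3 differed by 0.38 on the log2 scale (95% confidence interval -0.09 to 0.86, limma adjusted p = 0.369) and Ccl4 by 0.09 (-0.37 to 0.56, adjusted p = 0.856). None of the 5 members was called there, and none had an unadjusted p under 0.05 by limma, where 2.75% of 20596 probe sets were higher and 0.481% were lower in Eμ-xbp-1s B cells. With the replicate number as a block, the probe sets lower there went from 99 to 159 and no member was called. The median over the 5 genes was 0.015, and over all probe sets tested -0.05.

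**Figure D2:**
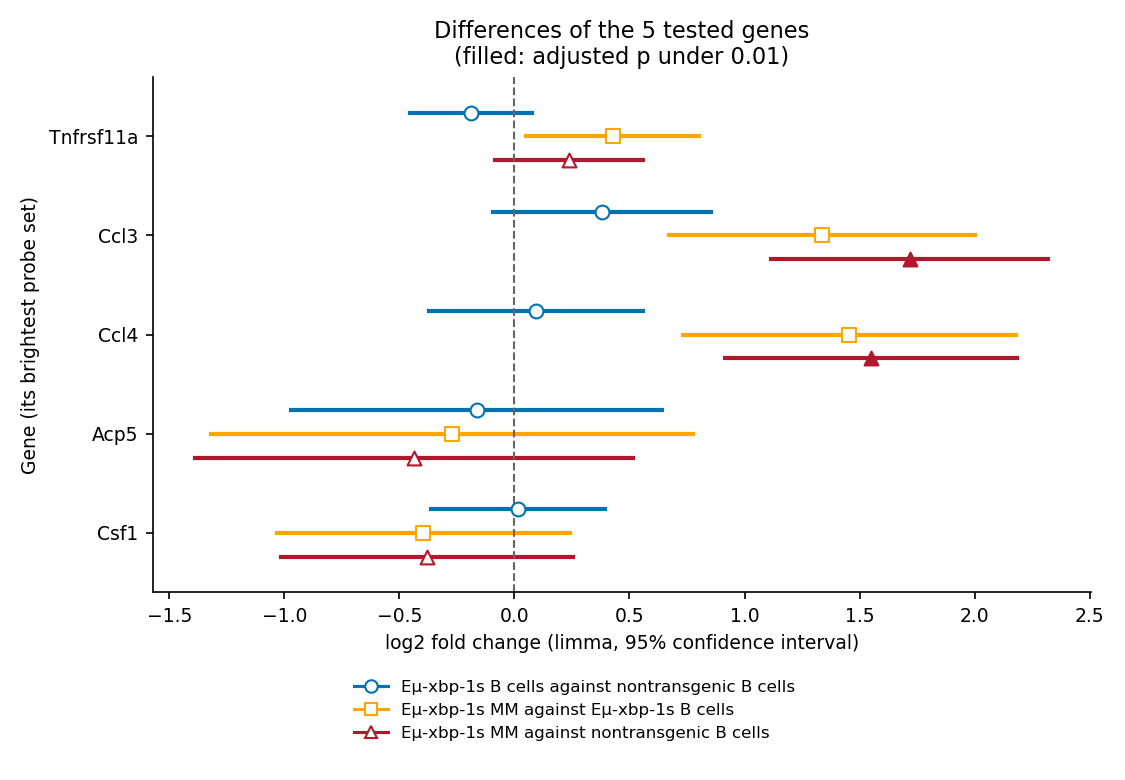
Log2 fold change (x axis, limma, bars are 95% confidence intervals) of the 5 tested genes in the 3 comparisons of groups, each marked by its own colour and shape. Filled symbols passed an adjusted p of 0.01: Ccl3 (1.72) and Ccl4 (1.55) in MM against nontransgenic B cells.

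In MM against nontransgenic B cells, the macrophage list moved in the same direction as the pair of chemokines. Of its 12 tested genes, 2 were higher in MM than in nontransgenic B cells, C1qa (378 ± 135 to 3028 ± 1973) and Lyz2 (520 ± 129 to 6540 ± 2918). C1qa encodes a complement component of tissue macrophages and Lyz2 lysozyme. Against Eμ-xbp-1s B cells none of the 12 macrophage genes was called by limma, with 1 at an unadjusted p under 0.05. The median log2 fold change of the list was 1.43 against nontransgenic and 0.57 against Eμ-xbp-1s B cells. On MM replicate 4, where macrophage genes had their highest sum of 40530, Ccl3 stood at 260.5, and on replicate 6, with the lowest sum of 9744, it had its lowest MM value. Macrophage sums were also higher in Eμ-xbp-1s (7324 to 14270) than in nontransgenic B cells (3333 to 5309), where neither chemokine was called. MM replicate 5 had a macrophage sum of 12050, within that Eμ-xbp-1s range, and read 188.6 for Ccl3, above all Eμ-xbp-1s B cell arrays. Genes of NK cells, which also make both chemokines, summed to 6439, 6142, 3668, 1582, 1029 and 1094 on MM replicates 1 to 6. The sum was thus high on replicates 1 and 2, as were Ccl3 and Ccl4, but the genes of this list did not all move so. Ccl5 made the largest part of the sum there (4012 and 3296). Ncr1, another gene of the list, ran the other way, with 121.0, 95.3 and 60.6 on replicates 1 to 3 and 312.8, 237.0 and 278.7 on replicates 4 to 6. The NK cell genes summed to 1149 to 1551 in nontransgenic B cells and to 4547 to 6494 in Eμ-xbp-1s B cells, where the chemokines were not called higher. By limma none of the 7 tested genes was higher in MM in either comparison (3 had an unadjusted p under 0.05 in either direction against Eμ-xbp-1s and 1 against nontransgenic B cells). The part of macrophages or NK cells in the chemokine levels was not tested. The genes nearest to Ccl3 over the 16 arrays, by the mean absolute difference of log2 values centred on each gene's mean among 11064 genes, were Ms4a7 (0.20), Pla2g4a (0.20) and Ccl4 (0.24). Ms4a7, a membrane protein known from macrophages, averaged 90.0 in nontransgenic B cells, 109 in the transgenic ones and 363 in MM. For Ccl4 the nearest were Ccl3 (0.24), Ltbp2 (0.25), which encodes a matrix protein, and Rad54l (0.27), a gene of homologous recombination.

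RANKL was near the floor. Tnfsf11 stood at or under it on all 10 B cell arrays, between 10.05 and 18.4 in the nontransgenic group and between 26.2 and 47.6 in the Eμ-xbp-1s group. On the MM arrays it read 93.0, 99.9, 72.5, 6.4, 25.6 and 29.2, so that replicates 1 to 3 exceeded the floor and replicates 4 to 6 did not. Its second probe set read 51.2, 56.3, 42.7, 26.1, 16.9 and 65.2 there, above the floor on replicates 1, 2 and 6. The 2 probe sets thus put replicates 1 and 2 above the floor and differed on replicates 3 and 6. No array reached 100, so the gene was not tested. In the fit with no filter its log2 fold change in MM was 0.40 against either B cell group. The limma adjusted p was 0.385 against Eμ-xbp-1s and 0.321 against nontransgenic B cells. All B cell arrays and MM replicates 4 to 6 were set to the floor there, so this value is not a lower bound. T cell genes, which mark another source of RANKL, summed to 3282, 4544 and 4259 on MM replicates 1 to 3 and to 1118, 668 and 823 on replicates 4 to 6. In Eμ-xbp-1s B cells, however, they summed to 5702 to 7148 with Tnfsf11 under the floor. The part of T cells in its level was not tested.

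RANK, the receptor, was measured well above the floor in every group. Tnfrsf11a read 211.9, 211.8, 196.7, 209.9 and 214.5 in nontransgenic B cells. It read 168.0, 170.6, 176.9, 175.0 and 231.9 in Eμ-xbp-1s B cells, and 231.6, 207.1, 223.6, 245.5, 243.7 and 348.4 in MM. Replicate 6 was the highest MM array by a wide margin, and the groups overlapped in each comparison. The means were 209 ± 7.04 (SD, n = 5), 184 ± 26.7 (SD, n = 5) and 250 ± 50.3 (SD, n = 6). In order of level, MM thus lay above nontransgenic B cells and these above Eμ-xbp-1s B cells, and no neighbouring pair passed the test: the log2 fold change was 0.24 for MM against nontransgenic B cells (95% confidence interval -0.08 to 0.56, limma adjusted p = 0.276) and -0.19 between the B cell groups (-0.46 to 0.08, adjusted p = 0.43). Against Eμ-xbp-1s B cells, MM differed by 0.43 (0.05 to 0.80, adjusted p = 0.135). A second probe set lay around the floor, from 29.0 to 82.7 over the 16 arrays.

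Neither the decoy of RANKL nor the WNT antagonist exceeded the floor on any array. Tnfrsf11b read 36.8 to 47.8 in nontransgenic B cells, 20.9 to 43.8 in Eμ-xbp-1s B cells and 23.5 to 47.8 in MM by its brighter probe set. Dkk1 read 7.82 to 24.8, 5.68 to 26.6 and 13.7 to 40.9. Values this low have no order, so no fold is given, and they show only that these probe sets did not exceed the floor.

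Acp5 was bright in all groups and varied widely within each. The nontransgenic arrays read 1475, 2260, 988, 983 and 928. The Eμ-xbp-1s B cell arrays read 2026, 1803, 524, 860 and 1032, and the MM arrays 1215, 1708, 1329, 1385, 538 and 297. Replicates 1 and 2 were the highest in both B cell groups, replicates 5 and 6 the lowest in MM, and the groups overlapped throughout. The means were 1327 ± 567 (SD, n = 5), 1249 ± 639 (SD, n = 5) and 1079 ± 543 (SD, n = 6). Log2 differences were -0.16 between the B cell groups (95% confidence interval -0.97 to 0.64, limma adjusted p = 0.855), -0.27 for MM against Eμ-xbp-1s B cells (-1.32 to 0.77, adjusted p = 0.756) and -0.44 for MM against nontransgenic B cells (-1.39 to 0.52, adjusted p = 0.512). Intervals of this width leave a difference of 1 on the log2 scale in MM within reach, so that the test does not show the groups to be alike.

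Ctsk, the other osteoclast enzyme, was dim. It read 84.5, 85.2, 58.3, 52.7 and 48.4 in nontransgenic B cells. All 5 Eμ-xbp-1s B cell arrays lay under the floor, at 44.1, 36.5, 48.3, 43.1 and 43.9. The MM arrays read 104.5, 93.9, 88.2, 83.1, 69.1 and 315.0. Every MM array lay above every Eμ-xbp-1s B cell array. The values of these transgenic arrays did not overlap those of nontransgenic B cells either, though the lowest nontransgenic value was itself under the floor. The share of all probe sets without overlap was not counted, so nothing is read from this. Only MM replicates 1 and 6 exceeded 100, so the filter left the gene out. In the fit with no filter its log2 fold change was at least 1.11 in MM against the transgenic B cells (standard error 0.35, limma adjusted p = 0.129) and 0.74 against nontransgenic B cells (adjusted p = 0.314), and neither was called. In nontransgenic B cells the arrays had the same order for both enzymes, whereas MM replicate 6, with the highest Ctsk value, had the lowest Acp5 value of its group, 297.

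Csf1 had 4 probe sets, which did not run the same way. The brightest read 639.0, 608.5, 385.5, 499.5 and 556.8 in nontransgenic B cells. It read 564.7, 503.1, 590.5, 403.3 and 649.2 in Eμ-xbp-1s B cells, and 392.8, 402.4, 328.9, 976.0, 266.9 and 334.4 in MM. MM replicate 4 was the highest of all 16 arrays. Of the other MM arrays, replicates 1 and 2 overlapped the low end of the B cells and replicates 3, 5 and 6 lay below every B cell array. The means were 538 ± 100.3 (SD, n = 5), 542 ± 93.7 (SD, n = 5) and 450 ± 262 (SD, n = 6), with log2 fold changes in MM of -0.38 against nontransgenic (limma adjusted p = 0.381) and -0.40 against Eμ-xbp-1s B cells (adjusted p = 0.42).

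By contrast, the second and the third probe set of Csf1 gave positive differences. The second averaged 173 ± 52.4, 162 ± 32.0 and 237 ± 65.1, a log2 fold change in MM of 0.46 against nontransgenic (limma adjusted p = 0.213) and of 0.52 against Eμ-xbp-1s B cells (adjusted p = 0.159). The third averaged 109 ± 10.6, 116 ± 10.1 and 175 ± 63.9, with 0.61 (adjusted p = 0.0927) and 0.51 (adjusted p = 0.211). On both, MM replicates 1 to 3 were the high arrays, at 259.4 to 308.6 and at 193.6 to 257.1, whereas replicate 4, the high array of the brightest probe set, read 223.0 and 147.6. The fourth stayed under the floor on every array. None of these differences was called, and a mean over the probe sets turned the direction in MM (0.23 against nontransgenic, 0.21 against Eμ-xbp-1s B cells). No direction is therefore given for Csf1 in MM.

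**Figure D3:**
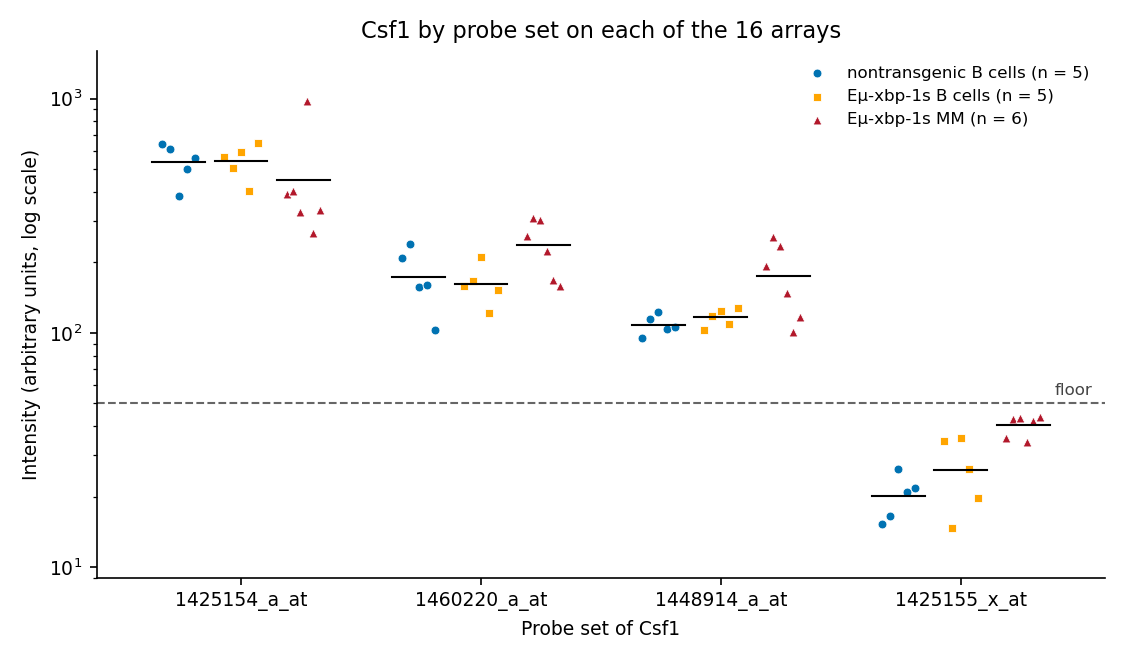
Intensity (arbitrary units, log axis) of the 4 probe sets of Csf1 on each array, with nontransgenic B cells (circles, n = 5), Eμ-xbp-1s B cells (squares, n = 5) and Eμ-xbp-1s MM (triangles, n = 6), group means as black bars and the floor of 50 as a dashed line. The MM mean is below those of the B cells on the brightest probe set (450) and above them on the second (237) and the third (175).

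The 6 MM arrays differed among themselves in these genes. Replicates 1 and 2 were the highest for Ccl3 and Ccl4 and were above the floor on both probe sets of Tnfsf11. With replicate 3 they had the highest sums of mature B cell genes in MM (13860, 13100 and 13110). Replicates 4 and 5 carried the neutrophil and erythroid genes named above. Replicate 6 held the highest Tnfrsf11a and Ctsk and the lowest Ccl3, Ccl4 and Acp5, with sums of 9744 for macrophage and 4583 for stromal genes, each the lowest of the MM arrays. The part of these other cells in the values of single arrays was not tested.

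**Figure D4:**
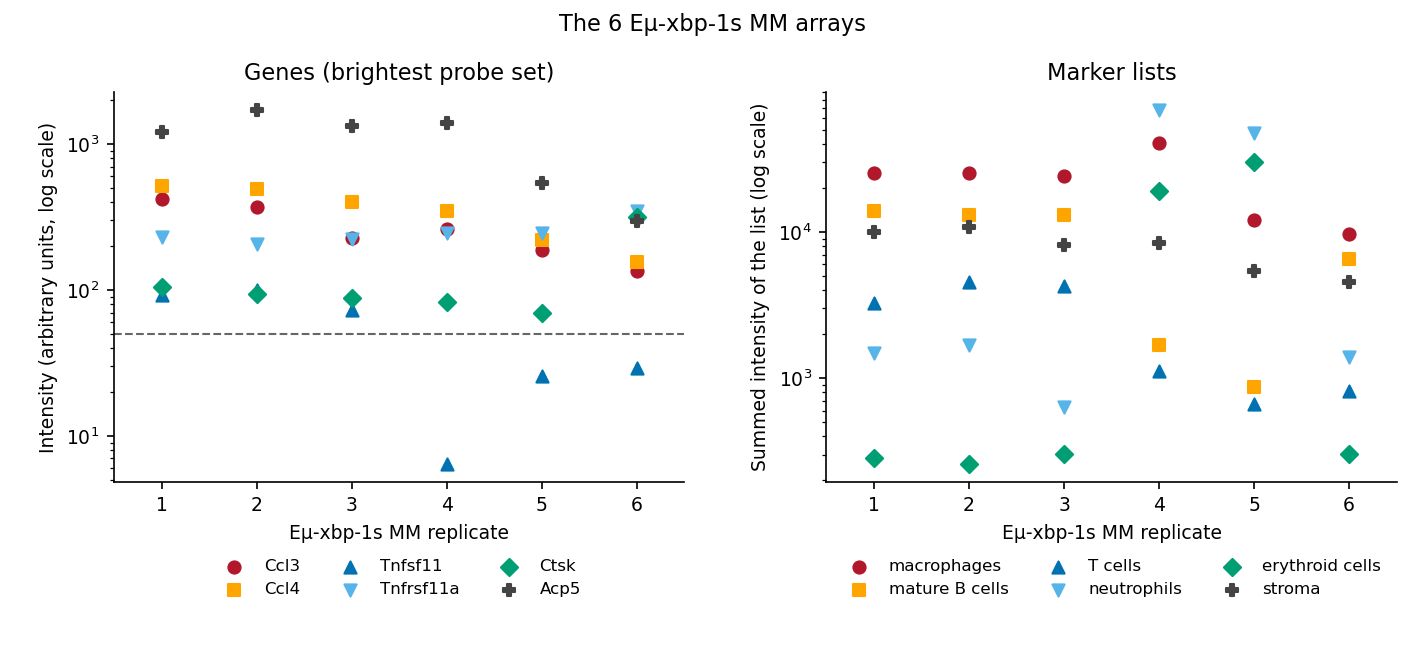
The 6 Eμ-xbp-1s MM arrays by replicate: left, intensity (arbitrary units, log axis) of 6 genes by their brightest probe set, with the floor of 50 dashed; right, summed intensity (log axis) of 6 lists of marker genes. Replicate 6 has the highest Ctsk (315.0) and the lowest Ccl3 (133.8), and neutrophil and erythroid genes are high on replicates 4 and 5.

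Other genes of the osteoclast were read from a list of 20, of which 19 had a probe set and Ocstamp and Calcr stood at or under the floor on all arrays. Between the 2 B cell groups, 3 of 14 tested genes were higher in the transgenic cells and none was lower. Over all 20596 probe sets tested there, 2.75% were higher and 0.481% were lower. By limma 8 of the 14 had an unadjusted p under 0.05, in either direction. Csf1r, the receptor of M-CSF, went from 1154 ± 235 to 3141 ± 616 (log2 fold change 1.45, limma adjusted p = 0.000335). Another of its probe sets was called too (log2 fold change 1.03, limma adjusted p = 0.00926). A further one was not called (log2 fold change 0.61, limma adjusted p = 0.244). Tyrobp, an adaptor of myeloid receptors, went from 825 ± 160 to 2343 ± 527 (log2 fold change 1.50, adjusted p = 0.000273), and Car2, a carbonic anhydrase that acidifies the resorption pit, from 200 ± 78.5 to 1207 ± 901 (log2 fold change 2.39, adjusted p = 0.0068). These genes are not particular to osteoclasts: Csf1r also belongs to the macrophage markers, Tyrobp is also made by NK cells and neutrophils, and Car2 is abundant in erythroid cells. Eμ-xbp-1s B cell replicate 3, which had the highest Car2 (2579), also had the highest erythroid sum of its group (9560). The macrophage sums given above were higher in all 5 Eμ-xbp-1s than in all 5 nontransgenic arrays. In the same comparison 9 of 9 tested T cell genes, 5 of 7 NK cell genes, 5 of 7 neutrophil genes, 3 of 12 macrophage genes and 2 of 5 erythroid genes were higher. The part of these cell types was not tested. The median log2 fold change of the list was -0.01, beside -0.05 over all probe sets tested.

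In MM, none of 16 tested osteoclast genes was called by limma against Eμ-xbp-1s B cells, with 2 at an unadjusted p under 0.05. Against nontransgenic B cells 2 of 15 were higher, Tyrobp (2030 ± 1023, log2 fold change 1.20, limma adjusted p = 0.00896) and Mitf (34.3 ± 8.30 to 138 ± 53.5), a transcription factor of osteoclasts and of other lineages. All nontransgenic arrays were under the floor for Mitf, so its log2 fold change was at least 1.35 (adjusted p = 0.00525). In the latter comparison 6 of the 15 had an unadjusted p under 0.05 by limma, in either direction. Over all probe sets tested, 1.28% were higher against Eμ-xbp-1s and 3.95% against nontransgenic B cells. The medians over the list were -0.02 and 0.26, beside 0.0005 and -0.03 over all probe sets tested.

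Among genes of osteoblasts and of WNT signalling, 18 of 21 had a probe set, and 6 of these stood at or under the floor on all arrays, Dkk2, Wif1, Lrp5, Ibsp, Dmp1 and Phex. Frzb, a secreted WNT antagonist, was the single gene called, higher in MM than in nontransgenic B cells among 8 tested, where 3.95% of all probe sets were higher. Frzb read 279.0, 213.0, 196.8, 444.1, 349.7 and 9.66 on the MM arrays and at most 5.60 on the nontransgenic ones. Its log2 fold change was 2.08 (standard error 0.44, limma adjusted p = 0.00629). MM replicate 6 lay under the floor and the other 5 well above it. That array and the nontransgenic ones were set to the floor, so the fold change is not a lower bound. The stromal sums were high in MM on all 6 arrays, and their part in Frzb was not tested. Against Eμ-xbp-1s B cells, all under the floor too, the log2 fold change of Frzb was likewise 2.08 but short of the threshold (limma adjusted p = 0.0124). By limma none of 8 tested genes was called in that comparison (3 at an unadjusted p under 0.05) and none of 6 between the B cell groups (0 at an unadjusted p under 0.05). The medians over the list in the order of these 3 comparisons were 0.33, 0.49 and -0.03.

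Other ligands that act on bone cells numbered 17, of which 16 had a probe set and Il11, Inhba and Ccl20 stood at or under the floor on all arrays. Vegfa and Cxcl12 were higher in MM in both comparisons, 2 of 9 tested genes against nontransgenic and 2 of 10 against Eμ-xbp-1s B cells. Over all probe sets tested, 3.95% and 1.28% were higher in these comparisons. Cxcl12, the stromal chemokine that holds plasma cells in the marrow, read 2670, 1652, 1492, 1940, 1237 and 517 in MM and at most 68.1 on any B cell array. Its log2 fold change was at least 4.83 against nontransgenic (limma adjusted p = 4e-06) and 4.65 against Eμ-xbp-1s B cells (adjusted p = 2.2e-05). Another probe set of Cxcl12 averaged 286 ± 303 in MM and 27.4 ± 7.20 in Eμ-xbp-1s B cells. It was not called in that comparison (log2 fold change 1.82, limma adjusted p = 0.0778). Vegfa, the endothelial growth factor, read 83.6 to 206.9 in MM and at most 65.2 in B cells, with log2 fold changes of at least 1.40 (adjusted p = 0.00161) and at least 1.47 (adjusted p = 0.00297). Stromal genes, of which 6 of 8 were higher against nontransgenic and 5 of 8 against Eμ-xbp-1s B cells, moved with Cxcl12, and their part in it was not tested. By limma none of 6 tested ligands was called between the B cell groups, with 2 at an unadjusted p under 0.05. The medians over the list were 0.30, 0.27 and -0.01 for MM against nontransgenic B cells, MM against the transgenic ones, and between the B cell groups.

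Of the receptors of Ccl3, Ccl4 and osteopontin, 6 of 7 genes had a probe set and all 6 were tested. Ccr1, a receptor of Ccl3 on myeloid cells and osteoclast precursors, was higher in MM (544 ± 228, SD, n = 6) than in nontransgenic B cells (121 ± 53.0, SD, n = 5), a log2 fold change of 2.20 (standard error 0.37, limma adjusted p = 0.00166). Its MM arrays read 268.2 to 857.2 and its nontransgenic arrays 54.5 to 175.7. In that comparison 3.95% of all probe sets tested were higher. None of the 6 was called in the other comparisons by limma, with 3 at an unadjusted p under 0.05 in MM against the transgenic B cells and 2 between the B cell groups. The medians over the receptors were 0.67, 0.07 and 0.34 for MM against nontransgenic B cells, MM against the transgenic ones, and between the B cell groups.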

How the data were processed

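RNA of 16 samples had been hybridised to Affymetrix Mouse Genome 430 2.0 arrays. The authors computed each deposited intensity with the dChip model, which sets perfect match against mismatch probes, once all arrays had been normalized to 1 array of median overall brightness. The lowest intensity is 1. No genome build is named for these values. Of 45101 probe sets the platform annotation gave 1 gene for 34958 (34754 matched to current symbols by gene identifier), several for 932 and none for 9211, and 64 controls were left out.

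Groups came from the sample titles. Values under 50 were set to 50, probe sets exceeding 100 on over 20% of the arrays of a comparison were kept, and each pair of groups was fitted alone with limma 3.58.1 (lmFit and eBayes) in R 4.3.3, with Benjamini-Hochberg adjustment over all probe sets tested and a threshold of 0.01. The study's own test, SAM, and its presence calls were not used. Fold changes are on the floored log2 scale, and "at least" marks those against a group mostly at the floor, where no array of the other group was at it. The fit was tested on simulated data. Python 3.11.15 (numpy 2.4.6, pandas 2.3.3) summarised the fits and matplotlib 3.10.9 drew the plots.

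The members and the gene lists were chosen with earlier results of these data known. Named are all members, up to 4 called genes with the largest log2 fold change per list and comparison, the 3 genes nearest to each called member, and up to 2 genes of a marker list. The number of arrays limits the precision. Deviations of same-numbered B cell arrays of both genotypes from their group means correlated at 0.51, 0.53, 0.22, 0.18 and 0.51. For Eμ-xbp-1s replicates 1, 4 and 5, however, a nontransgenic array of another number correlated better. The main fits were therefore not paired, and the replicate number was a block in 1 alternative only. For MM the correlations of same-numbered arrays were not all positive (-0.28 with Eμ-xbp-1s and -0.26 with nontransgenic B cells for replicate 3). Alternatives tried were a floor of 16 or of 100, adding 50 in place of a floor, no filter, quantile normalization, trend and robust variance, array weights, one fit of all groups, the replicate block, an adjusted p under 0.05, averaging the probe sets of a gene, MM without replicates 4 and 5, and each array left out.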

Additional observations from a re-analysis of the deposited data

Results flagged for a closer look

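In 5 of 28 groups of arrays examined, each a probe set in 1 group with a value above the floor, the highest or lowest array stood far from the others by Dixon's test, which by chance marks about 1 in 20 groups. For Tnfrsf11a this held in all 3 groups: nontransgenic replicate 3 was the lowest at 196.7 (others 209.9 to 214.5), Eμ-xbp-1s B cell replicate 5 the highest at 231.9 (168.0 to 176.9) and MM replicate 6 the highest at 348.4 (207.1 to 245.5). For Ctsk, MM replicate 6 stood at 315.0 with the others at 69.1 to 104.5. For the brightest probe set of Csf1, MM replicate 4 stood at 976.0 with the others at 266.9 to 402.4.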

How the results depend on the processing

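Ccl3 remained called in MM against nontransgenic B cells in all 23 alternatives. The count of members higher there went from 2 to 1 with no filter on low values, and ran from 1 to 2 when single arrays were left out (1 without nontransgenic replicate 1 or 2, Ccl4 being the gene lost each time). Against Eμ-xbp-1s B cells the count went from 0 to 2 (Ccl3 and Ccl4) with array weights, with all 3 groups in one fit and at an adjusted p under 0.05, and ran from 0 to 2 with single arrays left out (2 without MM replicate 6). Differences that were not called turned their sign as follows. Between the B cell groups, array weights gave log2 differences of -0.38 for Ccl4 and 0.60 for Acp5, quantile normalization gave -0.0075 for Csf1, and single arrays left out gave -0.0445 to 0.27 for Ccl4, -0.38 to 0.11 for Acp5 and -0.10 to 0.12 for Csf1. In MM against Eμ-xbp-1s B cells, Acp5 ran from -0.54 to 0.055 with single arrays left out and was 0.055 with the replicate block, and reading Csf1 by the mean of its probe sets gave 0.21. In MM against nontransgenic B cells, array weights gave 0.31 for Acp5 and that mean gave 0.23 for Csf1. The cause of these turns was not tested. The replicate block, which drops MM replicate 6 for want of a partner, changed no member's call: the log2 fold changes of Ccl3 and Ccl4 were 1.90 and 1.77 against nontransgenic and 1.51 and 1.67 against Eμ-xbp-1s B cells. The other 308 log2 fold changes under alternatives kept their direction and side of the threshold, and the 27 group levels moved by less than 1 SD with quantile normalization. Over all probe sets, the counts past the test moved by over 1.5 times in 65 of 134 cases: with settings other than a left-out array they ran from 199 to 1329 higher and 18 to 580 lower between the B cell groups, 111 to 2224 and 120 to 2314 in MM against Eμ-xbp-1s, and 440 to 3060 and 721 to 2724 in MM against nontransgenic B cells.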
